A study of Mus musculus with 8 samples.

Results

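Hox genes encode homeodomain transcription factors that lie in 4 clusters, Hoxa, Hoxb, Hoxc and Hoxd. They were read here as every probe set whose single gene symbol was Hoxa, Hoxb, Hoxc or Hoxd followed by a number, which gave 48 of 45037 probe sets and 33 of 18193 genes with a symbol of their own. Antisense transcripts and 3 probe sets shared between several Hox symbols were not members, and 11 of the 33 genes had more than 1 probe set. RNA came from mouse embryonic stem (ES) cells that held a short hairpin RNA (shRNA), either a control or one directed at Rif1, a gene for a protein of replication timing, DNA repair and telomeres. J1 control and J1 Rif1 shRNA were cells of the J1 line (strain 129S4/SvJae) harvested 48 h after lipofection, and F1 control and F1 Rif1 shRNA were C57BL/6xC3H cells at passage 16, in which the knockdown was stable. All 4 groups were grown on feeder cells and had 2 arrays each. The cell line label of the F1 control arrays also names the stable Rif1 knockdown, although their transfection label says control shRNA, and a general treatment note speaks of virus or siRNA. Nothing states that the arrays of a group came from separate cultures, so the p-values reflect the spread between these arrays, which could be purely technical.

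Within a cluster, Hox genes lie in the order in which they are used along the body axis. Those of low paralogue number act in the hindbrain and neck, and those of high number act in the lumbar region, the tail and the distal limbs. In ES cells the clusters are known to be held nearly silent under histone marks of the Polycomb complexes, and retinoic acid, Wnt and Fgf signals switch them on from the low-numbered end during differentiation. Fibroblasts, including those used as feeder cells, keep a Hox pattern of the body site they came from.

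Rif1 was lowered in both settings. Its brightest probe set read 2614 and 3222 in the control and 1259.8 and 1297 in the Rif1 shRNA arrays of J1, with 4231 and 4247 against 1339 and 1407 in F1. The log2 fold change was -1.08 in J1 (SE 0.08, limma adjusted p = 7.31e-05) and -1.74 in F1 (SE 0.08, adjusted p = 3.77e-07), and all 4 Rif1 probe sets passed in both. Values are the deposited signals, on a linear scale. Each fold change is a difference of log2(signal + 17.8) after quantile normalisation, which shrinks the change of dim probe sets, and a probe set is called where its Benjamini-Hochberg adjusted p over all 31605 tested probe sets lies under 0.05. The trimmed mean signal ran from 192 to 196 in J1 and from 299.8 to 308 in F1, and with 2 arrays a group precision is limited throughout. Among 11 ES cell genes 1 rose and 5 fell in F1, and 0 rose and 1 fell in J1, Tfcp2l1 (-0.61, adjusted p = 0.0101). Pou5f1, the gene of Oct4, read 5383 and 4505 in the control and 5182 and 4527 in the Rif1 shRNA arrays of J1, with 7017 and 8482 against 8342 and 7978 in F1, and Nanog did not pass in either setting (log2 fold change -0.08 in J1 and 0.14 in F1).

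Signals of the Hox probe sets ran from 8.08 to 404, and the 40th percentile of an array, used as the line between dim and brighter probe sets, lay between 46.6 and 52.7. On both J1 control arrays 23 of 48 Hox probe sets (47.9%, 16 genes) exceeded it, against 57.4% of all probe sets. On both J1 Rif1 shRNA arrays 21 did (43.8%, 14 genes), against 57.2%. On both F1 control arrays 21 did (43.8%, 18 genes), against 58.0%, and on both F1 Rif1 shRNA arrays 27 did (56.2%, 23 genes), again against 58.0%. The F1 Rif1 shRNA group thus held the most Hox probe sets over the line, and its share was still below that of all probe sets. At the 60th percentile this rank was lost: it held 12, as did each J1 group, and F1 control held 8. Of the 16 probe sets of cluster A, 8, 8, 7 and 10 exceeded the line in the J1 control and Rif1 shRNA groups and in the F1 control and Rif1 shRNA groups. In the same order the numbers were 6, 5, 7 and 8 of 11 in cluster B, 8, 7, 6 and 7 of 11 in cluster C, and 1, 1, 1 and 2 of 10 in cluster D. Cluster D had the fewest over the line. For 9 genes, namely Hoxa2, Hoxa13, Hoxb7, Hoxd1, Hoxd3, Hoxd10, Hoxd11, Hoxd12 and Hoxd13, no probe set exceeded the line on any of the 8 arrays.

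**Figure D1:**
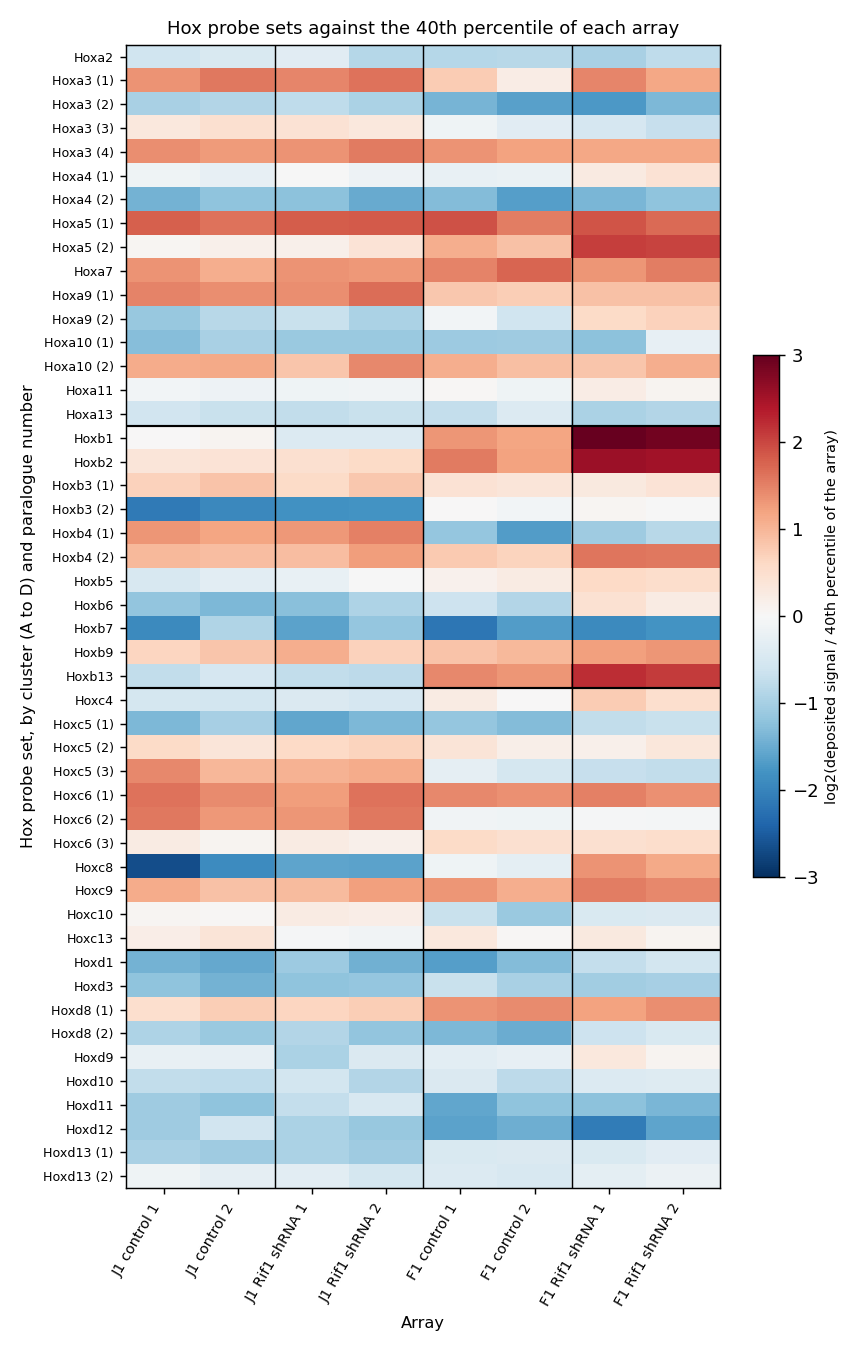
Each of the 48 Hox probe sets (rows, by cluster and paralogue number; numbers in brackets mark different probe sets of a gene) on each of the 8 arrays (columns), coloured by log2 of its deposited signal over the 40th percentile of that array. Red is above the line and blue below; Hoxb1 and Hoxb2 are darkest red on both F1 Rif1 shRNA arrays, and most of cluster D stays blue on all arrays.

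The probe sets that exceeded the line on all arrays numbered 16, from 13 genes. Hoxa3, Hoxa5, Hoxb2, Hoxb4 and Hoxa9 return below with the probe sets that rose in F1. Hoxa7, a thoracic patterning gene, read 129 and 99.1 in the control and 123 and 129.7 in the Rif1 shRNA arrays of J1, with 133 and 156 against 119 and 136 in F1. All 8 of its values lay between 99.1 and 156, and the groups overlapped. Hoxa10, which patterns the lumbar region and the uterus, read 111 and 102 in the control and 86.4 and 142 in the Rif1 shRNA arrays of J1, with 101 and 87.0 against 84.8 and 99.1 in F1 at its brighter probe set, with no ordering by group. Hoxb3, a hindbrain and neck gene, read 81.9 and 84.1 in the control and 72.9 and 92.5 in the Rif1 shRNA arrays of J1, with 63.3 and 60.2 against 58.3 and 62.7 in F1. At this probe set, 1427605_at, the F1 values were all below the J1 values, and within each setting control and Rif1 shRNA arrays overlapped. The other tested Hoxb3 probe set, 1456229_at, was higher in F1 instead. It read 11.7 and 12.2 in J1 control and 47.8 and 44.1 in F1 control. Hoxb9, which patterns the ribs, read 80.0 and 83.8 in the control and 103 and 85.6 in the Rif1 shRNA arrays of J1, with 85.2 and 91.4 against 112 and 118 in F1, so that both Rif1 shRNA arrays exceeded both control arrays in each setting, without passing in either. Hoxc9, which sets thoracic identity in motor neurons, read 111 and 85.5 in the control and 93.5 and 124 in the Rif1 shRNA arrays of J1, with 118 and 98.9 against 137 and 128 in F1. Its J1 groups overlapped and its F1 groups did not, and neither contrast passed. Hoxd8, the 1 gene of cluster D in this set, read 72.7 and 77.4 in the control and 76.6 and 88.0 in the Rif1 shRNA arrays of J1, with 120.1 and 124 against 110.1 and 123 in F1. At this probe set, 1431099_at, Hoxd8 was higher in F1 than in J1 at every array and did not pass in either contrast. The other Hoxd8 probe set, 1433638_s_at, was too dim to be tested. It read 18.63 and 16.62 in F1 control, below every J1 array, and 30.95 and 34.21 in F1 Rif1 shRNA. With no filter on dim probe sets it passed as higher in F1. Hoxc5 read 76.5 and 60.1 in the control and 73.8 and 83.7 in the Rif1 shRNA arrays of J1, with 61.9 and 52.3 against 52.4 and 59.8 in F1, and the brightest Hoxc6 probe set read 158 and 125 in the control and 117 and 162 in the Rif1 shRNA arrays of J1, with 128 and 119.6 against 136 and 122 in F1. At both, control and Rif1 shRNA arrays overlapped in each setting.

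Between the J1 and F1 controls the brighter genes were not the same. Hoxc8, Hoxb13, Hoxb1 and Hoxb2 were higher in F1 control than in J1 control: Hoxb13 read 30.8 and 33.0 in J1 and 128 and 116 in F1. In the other direction, Hoxb4 probe set 1451761_at read 127 and 106 in J1 control and 21.2 and 14.5 in F1 control, and Hoxc5 probe set 1456301_at read 138 and 92.9 against 39.4 and 32.3. These levels were not tested, since strain, line, delivery and time differ together between J1 and F1 and cannot be told apart.

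The first comparison asked whether Hox genes had moved 48 h after Rif1 shRNA reached J1 cells. None of the 33 Hox probe sets tested, from 24 genes, passed in J1, where 3.18% of all 31605 probe sets did. That share was not stable: it ran from 0.723% without J1 control replicate 2 to 5.64% without J1 Rif1 shRNA replicate 1, and was 1.11% without J1 control replicate 1, while the Hox count stayed at 0. The smallest adjusted p was 0.126. At an unadjusted p under 0.05 there were 4 (12.1%), against 17.1% of all probe sets. They were Hoxb1 (log2 fold change -0.35, SE 0.11, limma adjusted p = 0.126), Hoxc13, a hair and nail gene (log2 fold change -0.31, SE 0.12, limma adjusted p = 0.205), Hoxd9 (log2 fold change -0.31, SE 0.13, limma adjusted p = 0.245) and Hoxc8 (log2 fold change 0.28, SE 0.11, limma adjusted p = 0.231). Hoxb1 read 51.6 and 49.7 in J1 control and 36.8 and 39.6 in J1 Rif1 shRNA, so its knockdown arrays lay under the line and below both controls. Hoxc13 read 58.8 and 61.4 in J1 control and 47.5 and 49.0 in J1 Rif1 shRNA. Hoxd9 read 43.6 and 39.2 against 25.3 and 39.0, and Hoxc8 read 8.08 and 12.6 against 16.3 and 17.4, far under the line in both groups. The median log2 fold change over the 33 was 0.10, with 25 above 0, and over all tested probe sets it was -0.001, with 49.7% above 0. Without J1 Rif1 shRNA replicate 2 the median was 0.04, and without J1 control replicate 2 it was 0.05. Both Rif1 shRNA arrays exceeded both control arrays at 11 Hox probe sets (33.3%), against 20.6% of all, and lay below both at 4 (12.1%), against 19.0%.

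The second comparison asked the same of the stable F1 knockdown. Here 10 of the 33 Hox probe sets rose, each from a different gene, and 0 fell (limma), also at an unadjusted p under 0.05. That is 30.3% higher, against 8.26% of all tested probe sets, and 0% lower, against 6.78%. On the scale with the offset and joint normalisation, which shrinks dim changes, the rises ran from 1.29-fold to 2.51-fold. On that scale only Hoxb1 reached 2-fold and 7 of the 10 reached 1.5-fold. Without the normalisation Hoxb2 and Hoxc8 exceeded 2-fold as well (log2 fold change 1.07 and 1.15). The median log2 fold change over the 33 was 0.19, with 24 above 0, and over all tested probe sets it was -0.03, with 44.2% above 0. Without F1 control replicate 2 the median was 0.09, without F1 Rif1 shRNA replicate 1 it was 0.05 and without replicate 2 it was 0.08. Over all 48 members with no filter on dim probe sets it was 0.11, against -0.02. Both Rif1 shRNA arrays exceeded both controls at 20 of the 33 (60.6%), against 32.6% of all, and lay below both at 3 (9.09%), against 30.6%. The 20 include 5 probe sets that the filter kept only through the F1 Rif1 shRNA arrays, which favoured this order. They are those of Hoxa4, Hoxa9, Hoxb6, Hoxc8 and Hoxd9. Of the 10, 4, those of Hoxa4, Hoxa9, Hoxb6 and Hoxc8, were tested only because the F1 Rif1 shRNA arrays lifted them over the line, so their entry favoured a rise. With a filter on the mean over all arrays, which was chosen after the values were seen, 6 rose, those of Hoxa3, Hoxa5, Hoxb1, Hoxb2, Hoxb4 and Hoxb13. That is 24% of the 25 tested, against 8.74% of all probe sets. The count also fell to 5 without F1 control replicate 2, 3 without F1 Rif1 shRNA replicate 1 and 4 without F1 Rif1 shRNA replicate 2; in the last 2 cases those 4 probe sets were not tested. The share of all probe sets that were higher fell as well, to 4.66%, 3.49% and 3.87% in the same order, against 15.2%, 11.1% and 14.3% of the Hox probe sets tested.

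Fibroblast markers moved with this rise. Of 26 tested genes of a feeder fibroblast list 20 rose and 0 fell in F1, with a median log2 fold change of 1.03. Their summed signal was 13678 to 13817 in F1 control and 23899 to 24244 in F1 Rif1 shRNA arrays. In J1 0 rose and 3 fell, and the sum was 9078 to 9187 in control and 7549 to 8102 in Rif1 shRNA arrays. Of 9 tested genes that define fibroblasts 7 rose in F1, with a median of 1.10 and sums of 1068 to 1177 in control and 2969 to 3402 in Rif1 shRNA arrays. The lowest signal of these 9 genes on any array was 23.6, under the 40th percentile of every array. Col3a1, a fibrillar collagen gene, read 101 and 125 in F1 control and 412 and 316 in F1 Rif1 shRNA arrays (log2 fold change 1.27, adjusted p = 0.000120), and Col1a1 read 98.2 and 106 in F1 control and 213 and 167 in F1 Rif1 shRNA arrays (0.62, adjusted p = 0.0598). The part of these cells in the Hox values was not tested. In RNA of a whole culture, more cells that express a gene and more RNA of it per cell cannot be told apart.

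Among genes of paralogue numbers 1 to 4, 5 of 11 tested probe sets rose. With the filter on the mean over all arrays 4 of 9 rose, without Hoxa4, which was tested only through the F1 Rif1 shRNA arrays. Hoxb1, which gives a hindbrain segment its identity and answers to retinoic acid, read 51.6 and 49.7 in the control and 36.8 and 39.6 in the Rif1 shRNA arrays of J1, with 118 and 105 against 404 and 351 in F1. The 2 F1 groups stood far apart, while the J1 Rif1 shRNA values lay below the J1 controls without passing. In F1 its log2 fold change was the largest of any member (1.33, SE 0.11, limma adjusted p = 1.94e-05). Hoxb2, which acts in the hindbrain with Hoxb1, read 66.0 and 62.0 in the control and 67.9 and 78.1 in the Rif1 shRNA arrays of J1, with 139 and 107 against 282 and 269 in F1 (log2 fold change 0.86, SE 0.12, limma adjusted p = 0.000709 in F1). The F1 Rif1 shRNA values lay far above the F1 controls, and the J1 Rif1 shRNA values lay just above the J1 controls without passing. Hoxb4, a neck gene known for expanding blood stem cells, read 100.1 and 88.2 in the control and 92.8 and 125 in the Rif1 shRNA arrays of J1, with 81.1 and 74.4 against 144 and 142 in F1 at probe set 1460379_at (log2 fold change 0.60, SE 0.12, limma adjusted p = 0.00724 in F1). Its rise did not pass without F1 control replicate 2 or without either F1 Rif1 shRNA array. Hoxa3, needed for the thymus and parathyroid, read 131 and 139 in the control and 135 and 162 in the Rif1 shRNA arrays of J1, with 80.1 and 54.7 against 131 and 104 in F1 at probe set 1427433_s_at (log2 fold change 0.56, SE 0.15, limma adjusted p = 0.0268 in F1). Here F1 control lay below both J1 groups, and the F1 Rif1 shRNA values came near or below the lowest J1 value. This rise was lost without the same 3 arrays. Hoxa4, another neck gene, read 46.8 and 39.6 in the control and 48.4 and 47.7 in the Rif1 shRNA arrays of J1, with 40.5 and 40.8 against 57.1 and 63.0 in F1 at probe set 1420226_x_at (log2 fold change 0.37, SE 0.11, limma adjusted p = 0.0384 in F1). It was the smallest of the 10 rises and did not pass without either F1 control array or with no filter. Hoxc4 was the closest of the rest, at 56.3 and 46.8 in F1 control and 80.5 and 66.3 in F1 Rif1 shRNA (log2 fold change 0.33, SE 0.11, limma adjusted p = 0.0746).

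Among paralogue numbers 5 to 8, 3 of 12 tested probe sets rose. Hoxc8, which patterns the thorax and the motor neurons of the forelimb, read 8.08 and 12.6 in the control and 16.3 and 17.4 in the Rif1 shRNA arrays of J1, with 43.1 and 37.9 against 121 and 103 in F1 (log2 fold change 0.99, SE 0.11, limma adjusted p = 0.000175 in F1). Its J1 values all lay far under the line, and within F1 only the Rif1 shRNA arrays exceeded the line. Hoxa5, needed for the lung and airways, read 52.8 and 52.3 in the control and 53.8 and 70.2 in the Rif1 shRNA arrays of J1, with 101 and 86.0 against 200.5 and 189.9 in F1 at probe set 1448926_at (log2 fold change 0.74, SE 0.12, limma adjusted p = 0.00185 in F1). Hoxb6, expressed in trunk mesoderm, read 22.6 and 18.4 in the control and 20.4 and 27.8 in the Rif1 shRNA arrays of J1, with 30.6 and 25.4 against 65.4 and 55.5 in F1 (log2 fold change 0.70, SE 0.12, limma adjusted p = 0.00204 in F1). Hoxc8 and Hoxb6 were tested only through the F1 Rif1 shRNA arrays, and with the filter on the mean 1 of 10 rose, Hoxa5. At all 3, every J1 value lay under both F1 Rif1 shRNA values. The remaining 9 probe sets had log2 fold changes from -0.19 (Hoxc5) to 0.25 (Hoxb5) in F1, and none passed.

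Among paralogue numbers 9 to 13, 2 of 10 tested probe sets rose. Hoxb13, a gene of the tail bud and later of the prostate, read 30.8 and 33.0 in the control and 29.3 and 30.5 in the Rif1 shRNA arrays of J1, with 128 and 116 against 221 and 200.3 in F1 (log2 fold change 0.55, SE 0.11, limma adjusted p = 0.00713 in F1). It was under the line on all 4 J1 arrays and over it on all 4 F1 arrays. The rise did not pass without F1 control replicate 2 or F1 Rif1 shRNA replicate 1. Hoxa9, best known from blood stem cells and leukaemia, read 23.2 and 26.5 in the control and 30.8 and 27.5 in the Rif1 shRNA arrays of J1, with 44.3 and 30.9 against 70.8 and 75.7 in F1 at probe set 1455626_at (log2 fold change 0.64, SE 0.13, limma adjusted p = 0.00610 in F1), and did not pass without F1 control replicate 2. Hoxd9, a limb and sacral gene, read 37.9 and 39.0 in F1 control and 59.0 and 49.99 in F1 Rif1 shRNA (log2 fold change 0.32, SE 0.13, limma adjusted p = 0.131). Hoxa9 and Hoxd9 were tested only through the F1 Rif1 shRNA arrays, and with the filter on the mean 1 of 6 rose, Hoxb13. Hoxc10, of the lumbar cord, read 29.9 and 21.6 against 34.6 and 34.9 (log2 fold change 0.26, SE 0.11, limma adjusted p = 0.157), and Hoxb9 had 0.25 (adjusted p = 0.301).

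**Figure D2:**
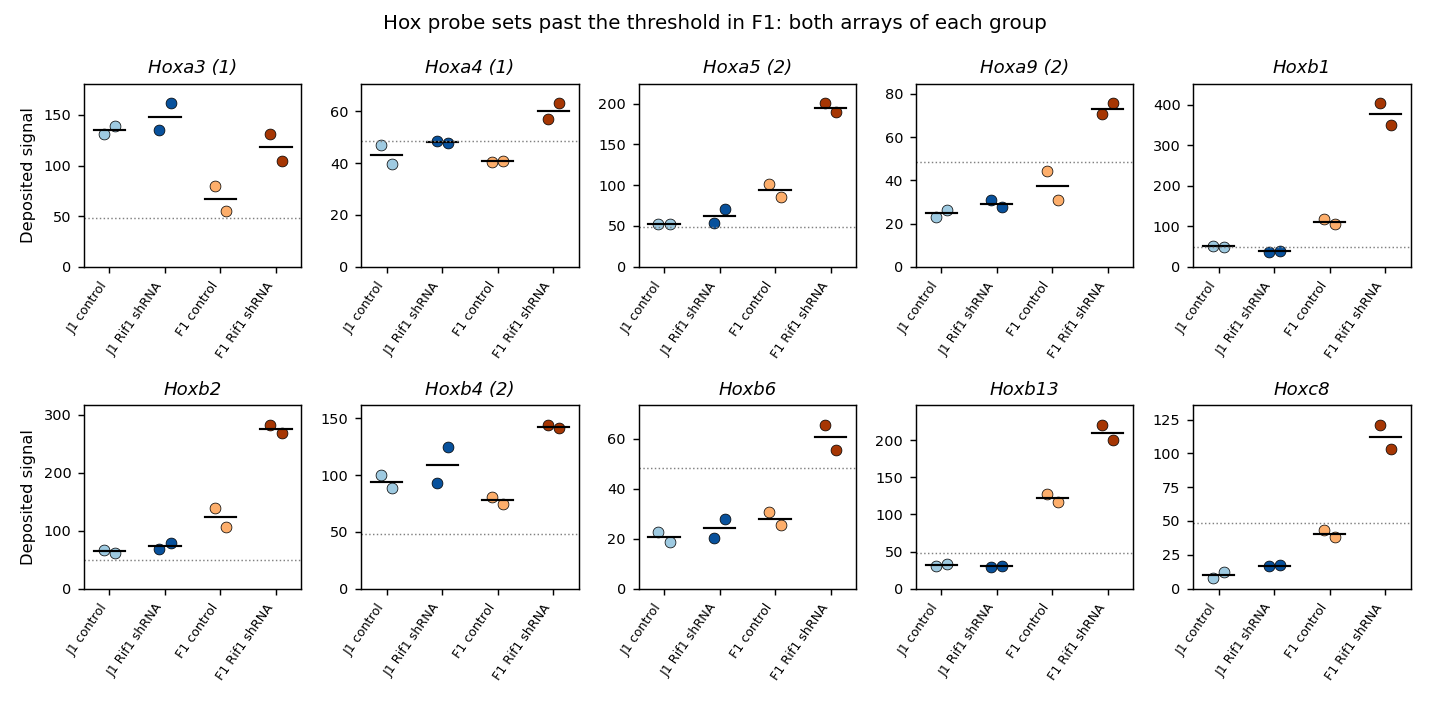
Deposited signal (vertical axes, linear, from 0) of the 10 Hox probe sets past the threshold in F1, with a point for each of the 2 arrays of a group, a bar for their mean and a dotted line for the mean 40th percentile of the 8 arrays. In every panel both F1 Rif1 shRNA arrays lie above both F1 control arrays, and in the Hoxa3 panel they lie near or below the lowest J1 array.

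By cluster, 5 of 10 tested probe sets rose in cluster B, 4 of 11 in A, 1 of 10 in C and 0 of 2 in D. These counts hold the 4 probe sets tested only through the F1 Rif1 shRNA arrays. With the filter on the mean over all arrays they were 4 of 8 in B, 2 of 8 in A, 0 of 8 in C and 0 of 1 in D. The medians of the log2 fold change in F1 were 0.40 in B, 0.05 in A, 0.03 in C and 0.12 in D, and in J1 they were 0.12, 0.12, 0.04 and -0.12. Of the 10 members of cluster D only 2 were bright enough to be tested. By position, the median in F1 was 0.33 for paralogue numbers 1 to 4, 0.01 for 5 to 8 and 0.22 for 9 to 13. Within cluster B, 3 of 6 probe sets of numbers 1 to 4, 1 of 2 of numbers 5 to 8 and 1 of 2 of numbers 9 to 13 rose. Each paralogue number from 1 to 6 held at least 1 probe set that rose, as did 8, 9 and 13, and 7, 10 and 11 held none. No probe set of paralogue number 12 was tested. In no cluster, and in no paralogue number with more than 1 tested probe set, did all tested probe sets pass the threshold. By sign alone, all tested probe sets of numbers 4, 9 and 13 lay above 0 in F1. Hoxa4, Hoxa9 and Hoxd9 among these were tested only through the F1 Rif1 shRNA arrays. By cluster 9 of 10 lay above 0 in B, 7 of 11 in A, 7 of 10 in C and 1 of 2 in D. Differences between clusters or positions were not tested.

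**Figure D3:**
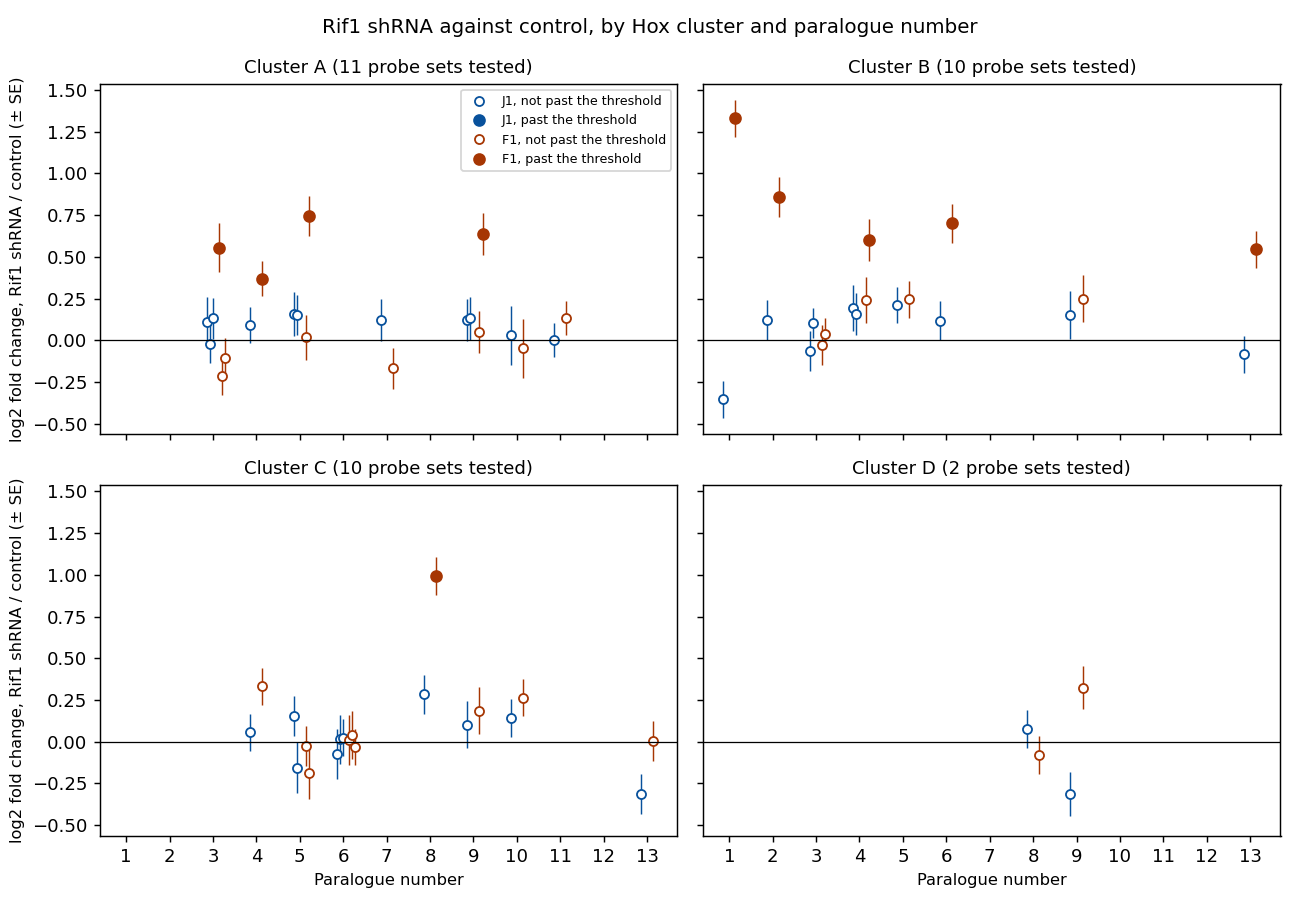
Log2 fold change of Rif1 shRNA over control (vertical axis, with the standard error of the limma fit) for the 33 tested Hox probe sets by paralogue number (horizontal axis) in clusters A to D, with J1 in blue and F1 in brown. Filled points passed the threshold: 10 in F1, led by Hoxb1 at 1.33 and Hoxc8 at 0.99, and 0 in J1.

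Different probe sets of a gene did not always move alike. Of the 10 genes that rose, 4 had another tested probe set, and none of these others passed. At Hoxa5 the other one, 1443803_x_at, read 176 and 135 in F1 control and 176 and 152 in F1 Rif1 shRNA (log2 fold change 0.02). At Hoxa9 it read 83.1 and 77.9 against 86.8 and 86.2 (0.05), and at Hoxb4 21.2 and 14.5 against 22.6 and 26.2 (0.24). The remaining 2 tested Hoxa3 probe sets had -0.21 and -0.11. Probe sets of 1 gene can read different transcript ends. Those ending in x_at or s_at can also share sequence with other transcripts. Here that holds for the Hoxa3 probe set that rose and the Hoxa5 probe set that did not, and for none of Hoxa9 or Hoxb4. Since their probe sets differ, these 4 genes are uncertain. The Hoxa4 probe set that rose ends in x_at as well, and the other one, 1427354_at, was too dim to be tested. That one read 19.1 and 14.9 in F1 control and 18.3 and 20.4 in F1 Rif1 shRNA, so Hoxa4 is also uncertain. Taken at the brightest probe set of each gene, 7 of 24 genes rose in F1 and 0 in J1. The share over all genes taken in this way was not computed. With the mean of all tested probe sets of a gene, chosen after the values were seen, 10 of 24 rose in F1. That is 41.7%, against 11.1% of all 14714 genes. Hoxa5, Hoxa9 and Hoxb4 passed there, Hoxa3 did not and Hoxc4 was added.

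The third comparison asked whether the change in F1 differed from that in J1. It was more positive in F1 at 4 Hox probe sets (12.1%), against 4.98% of all tested probe sets. Hoxc8 among them, like Hoxb6, Hoxa9 and Hoxd9 below, was tested only through the F1 Rif1 shRNA arrays. Their entry favoured a positive difference. With the filter on the mean over all arrays the count was 3 of 25, and Hoxc8 was not tested. The share over all probe sets with that filter was not computed for this contrast. The difference was 1.68 on the log2 scale for Hoxb1 (SE 0.16, limma adjusted p = 0.000126), 0.71 for Hoxc8 (adjusted p = 0.0210), 0.73 for Hoxb2 (adjusted p = 0.0229) and 0.63 for Hoxb13 (adjusted p = 0.0331). Only Hoxb1 stayed past the threshold with each array left out in turn. The count was 1 without either Rif1 shRNA array of F1 and without replicate 2 of the J1 or the F1 control, 2 without F1 control replicate 1 and 8 without J1 Rif1 shRNA replicate 2. Differences of similar size at Hoxd9 (0.64, adjusted p = 0.0578), Hoxb6 (0.59, 0.0539) and Hoxa5 (0.59, 0.0603) did not pass, nor did that of Hoxa9 (0.51, 0.121). For the other genes that rose in F1, a difference from J1 was therefore not shown.

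Promoter sequences from RefSeq (GRCm38.p6), running from 250 bases before to 50 after the start, matched 19 of the 33 Hox genes in 21 windows, and 5 of the 10 genes that rose. The 2 of these with the smallest adjusted p were Hoxb1, on the plus strand at chr11:96365508-96365807, and Hoxa5, on the minus strand at chr6:52204538-52204837. They are shown 5′ to 3′ because they belong to members the F1 result turns on, and they held 10 and 29 CpG pairs. Capitals mark the letters TGATNNAT, which resemble the paired site of PBX and HOX proteins.
Hoxb1: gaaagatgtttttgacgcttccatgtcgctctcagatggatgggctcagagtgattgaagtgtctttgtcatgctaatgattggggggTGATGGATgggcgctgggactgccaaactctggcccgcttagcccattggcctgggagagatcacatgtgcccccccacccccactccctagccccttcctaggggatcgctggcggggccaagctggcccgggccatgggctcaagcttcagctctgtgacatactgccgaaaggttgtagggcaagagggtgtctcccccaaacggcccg
Hoxa5: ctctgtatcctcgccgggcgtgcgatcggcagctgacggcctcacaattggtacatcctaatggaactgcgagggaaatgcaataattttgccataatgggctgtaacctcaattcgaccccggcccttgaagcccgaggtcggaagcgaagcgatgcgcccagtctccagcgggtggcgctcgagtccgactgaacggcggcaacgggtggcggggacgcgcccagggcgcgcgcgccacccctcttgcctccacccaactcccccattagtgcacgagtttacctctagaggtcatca
The Hoxb1 match lies at bases 89 to 96 of its window, and the Hoxa5 window holds none on either strand. Over both strands TGATNNAT was found in 3 of 21 Hox windows (14.3%), against 8.85% of all 32851, and in 1 of the 5 windows of genes that rose; it was searched after the Hoxb1 window had been seen. The letters TTTATG, the core bound by CDX proteins, were in 3 Hox windows (14.3%), against 11.9%, and in 0 of the 5. A repeat of AGGTCA with a gap of 5 bases, which retinoic acid receptors bind, was in 0 Hox windows, against 0.00913% of all. A looser form of that repeat was in 0, against 0.323%. The median number of CpG pairs was 15 in Hox windows and 7 in all windows. Among Hox windows it was 14 for the genes that rose and 17.5 for the others. These matches are descriptions of these windows and show no binding.

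Related homeobox genes were read next. They include the Cdx genes, relatives of the Hox genes that act upstream of them in the tail bud. Of 9 tested genes of that list, 2 rose in F1 and 0 fell. Cdx1 read 39.0 and 33.0 in the control and 34.9 and 42.2 in the Rif1 shRNA arrays of J1, with 56.3 and 51.2 against 276 and 281 in F1 (log2 fold change 1.71, adjusted p = 2.73e-06 in F1, limma), a larger change than that of any Hox member. Gbx2, a gene of the boundary between midbrain and hindbrain, read 406 and 339 in F1 control and 556 and 545 in F1 Rif1 shRNA arrays (0.45, adjusted p = 0.0242). Cdx2 had 0.14 (adjusted p = 0.508), and Cdx4 was too dim to be tested. Among 8 tested genes of the PBX and MEIS cofactors, which bind DNA with Hox proteins, 0 passed in either setting (limma), and 1 lay lower in each at an unadjusted p under 0.05.

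Signals that switch on Hox genes were also read. Of 17 tested genes of retinoid signalling, 5 rose and 0 fell in F1, and 2 rose in J1. Over all tested probe sets 8.26% were higher and 6.78% lower in F1. At an unadjusted limma p under 0.05, 8 of the 17 lay higher and 2 lower in F1. The 2 were the receptor genes Rara (log2 fold change -0.28) and Rxra (-0.32). The retinoic acid receptor gene Rarb, itself a target of retinoic acid, read 31.4 and 30.6 in F1 control and 66.7 and 68.4 in F1 Rif1 shRNA arrays (log2 fold change 0.72, adjusted p = 0.00164, limma). Aldh1a2, which makes retinoic acid, had 0.47 (adjusted p = 0.0215), and Rdh10, which makes its precursor, had 0.56 (adjusted p = 0.0136). Crabp1 and Crabp2, which carry retinoic acid in the cell, rose in both settings: their log2 fold changes were 0.61 and 0.51 in J1 and 0.57 and 0.50 in F1. Cyp26a1, which breaks retinoic acid down, had 0.16 (adjusted p = 0.396). Of 10 tested signalling genes of the posterior axis, 3 rose in F1, namely Wnt8a (1.07, adjusted p = 0.000123), Fgf8 (0.56, adjusted p = 0.00541) and Wnt5a (0.54, adjusted p = 0.00571), and 0 passed in J1.

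The Polycomb complexes, which keep Hox clusters silent, were read next. Of 12 tested genes of PRC2, the complex that writes the repressive mark on histone H3, 0 rose and 1 fell in F1, namely Rbbp4 (-0.19, adjusted p = 0.00712, limma). Of 19 tested PRC1 genes 5 rose and 2 fell. Yaf2 had 0.53 (adjusted p = 0.00137), Phc2 0.62 (adjusted p = 0.0210), Pcgf5 0.36 (adjusted p = 0.0422), Bmi1 0.35 (adjusted p = 0.0492) and Rnf2 0.18 (adjusted p = 0.0478). Cbx7, a reader of that mark in ES cells, fell by 0.77 on the log2 scale (adjusted p = 2.27e-05), and Cbx2 fell by 0.35. A list of 18 genes held the opposing MLL complexes, the demethylases of that mark, Dot1l and genes of the Mllt and Aff families. Of these, 0 rose and 3 fell in F1: Kmt2c by 0.52, Ash2l by 0.34 and Kmt2b by 0.33. None of these 3 lists held a gene that passed in J1. Of 24 tested genes that lie next to the Hox clusters on the chromosome, 2 rose and 3 fell in F1, and 1 rose and 0 fell in J1. Over all tested probe sets 8.26% were higher and 6.78% lower in F1. The few genes that passed here and in PRC2 are thus not read as a change of these lists. Tax1bp1 and Hibadh, both beside the Hoxa cluster, went opposite ways (0.31 and -0.40).

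Markers of other cell types were read beside these. Of 8 tested trophoblast genes 5 rose and 1 fell in F1, and their summed signal was 2481 to 2673 in control and 9742 to 10607 in Rif1 shRNA arrays, with 0 higher and 2 lower in J1. The 5 were Krt7, Krt8 and Krt18, keratins of simple epithelia, and Eomes and Hand1, which early mesoderm also expresses. Of 9 neural genes 1 rose and 3 fell, among them Sox1 (-0.95, adjusted p = 0.000922, limma) and Pax6 (-0.67, adjusted p = 0.00147). Of 8 extraembryonic endoderm genes 1 rose, Pdgfra, which is also on the fibroblast list, and of 6 genes of lateral and paraxial mesoderm 0 passed, with 1 lower at an unadjusted p under 0.05. Of the 5 ES cell genes that fell, namely Sox2, Zfp42, Esrrb, Utf1 and Fgf4, it was Fgf4 (-0.62, adjusted p = 0.00417) and Esrrb (-0.54, adjusted p = 0.000106) that fell farthest. Their part in the Hox values was not tested.

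**Figure D4:**
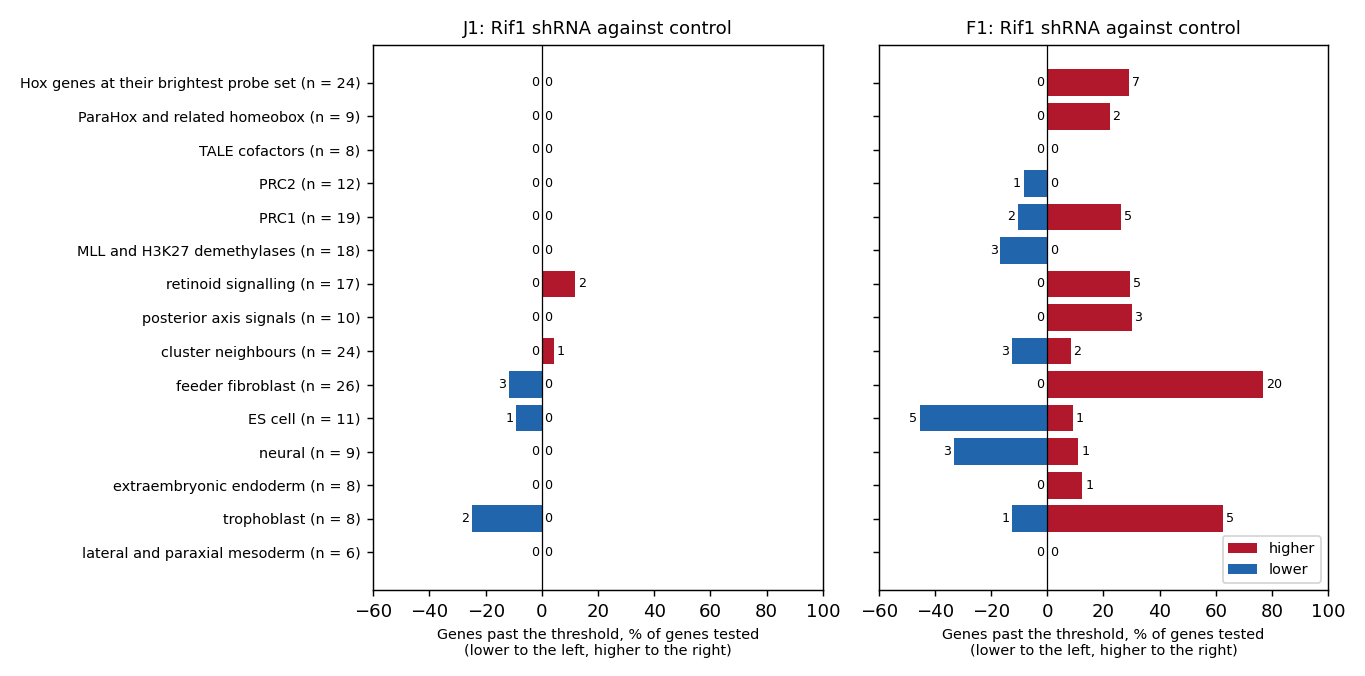
Genes past the threshold as a share of the genes tested in each list (horizontal axes, percent; numbers at the bars are genes), lower in blue to the left and higher in red to the right, for J1 and F1. In F1, 7 of 24 Hox genes at their brightest probe set rose, beside 20 of 26 feeder fibroblast genes and 5 of 17 retinoid signalling genes. Over all tested probe sets 8.26% were higher and 6.78% lower in F1. In J1 no Hox gene passed.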

How the data were processed

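The deposited table gives 1 intensity signal per probe set and array of an Affymetrix Mouse Genome 430 2.0 array, made with MAS5 per the submitters' processing notes, of unstated version. Probe sets were named by the platform annotation. The members and the gene lists were chosen with earlier results of these data known. An offset of 17.8, the 10th percentile of the table, was added before log2, and the 8 arrays were quantile normalised together. After 64 control probe sets were removed, 31605 of 45037 exceeded the 40th percentile on at least 2 arrays and were tested. One fit of all 4 groups was made with limma 3.58.1 in R 4.3.3 (eBayes with an intensity trend, two-sided, 4 residual and 6.88 prior degrees of freedom) and was tested on simulated data. It gives every group 1 spread. A list takes each gene at its brightest tested probe set. Members past the threshold, those over the 40th percentile in all groups, the 4 largest changes not past it, and up to 4 genes of each list by p were to be named; list genes beyond that spell out a count. Replicates of a group correlated at 0.991 to 0.997. Alternatives were other offsets, filters, scalings, blocks and each array left out. Figures used matplotlib 3.10.9.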

Additional observations from a re-analysis of the deposited data

Results flagged for a closer look

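For 4 Hox probe sets the change in F1 differed from that in J1 by a test of the difference itself (limma interaction contrast, adjusted over all tested probe sets). Hoxb1 had the farthest difference, 1.68 on the log2 scale (adjusted p = 0.000126), higher on both F1 Rif1 shRNA arrays than on both controls and lower on both J1 Rif1 shRNA arrays than on both controls. Over 18 alternatives it ran from 1.23 to 1.90 and passed in all. Hoxb2 differed by 0.73 (adjusted p = 0.0229) and passed in 12 of 18. Hoxc8 differed by 0.71 (adjusted p = 0.0210), passed in 10 of the 14 alternatives that tested it, and lay far under the 40th percentile on all J1 arrays, where a change is hard to measure. Hoxb13 differed by 0.63 (adjusted p = 0.0331) and passed in 12 of 18. Hoxc8 was tested only through the F1 Rif1 shRNA arrays, so its entry favoured a positive difference. No group had enough arrays for a check of single outlying arrays.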

How the results depend on the processing

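The J1 count of Hox probe sets was 0 in all 20 alternatives. The F1 count of 10 was 6 with a filter at the 60th percentile and 6 with a filter on the mean over all arrays, and 3 to 11 with each array left out; with no filter it was 11, where Hoxd1 and Hoxd8 entered and Hoxa4 left. Hoxb1, Hoxb2 and Hoxa5 passed in all 19 alternatives that tested single probe sets. The count for the difference between F1 and J1, 4, was 8 with quantile normalisation within each setting and 1 to 8 with each array left out. With a replicate block the F1 count was 9 and the difference count 2; with the replicate numbers crossed, which was chosen after seeing the data, they were 9 and 4; both blocks lost Hoxa4 in F1 (adjusted p = 0.0727 and 0.0533). Deviations of arrays with the same number correlated at -0.34 in J1 and 0.19 in F1, so the numbers are not shown to pair. The median Hox change was 0.0358 to 0.124 in J1 and 0.0478 to 0.210 in F1 with each array left out. At the 60th percentile 12, 12, 8 and 12 Hox probe sets were above in J1 (control, then Rif1 shRNA) and F1 (the same order), and at the 20th percentile 36 in F1 control. No direction reversed. The causes of these shifts were not tested. For the 15 Hox probe sets at or under the 40th percentile on all arrays, the filter leaves no test. With 1 array of a group left out, the lone array is assumed to vary like the others.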

Other observations

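Probe sets outside the rule lie within the clusters too. The probe set shared by Hoxb8 and Hoxb7, in the middle of cluster B, read 47.9 and 51.6 in F1 control and 99.7 and 108 in F1 Rif1 shRNA arrays (log2 fold change 0.71, limma adjusted p = 0.00223), and 35.2 and 42.2 in J1 control and 36.7 and 38.1 in J1 Rif1 shRNA arrays (-0.07, adjusted p = 0.822). Its reads cannot be given to either gene. Hoxb5os, an antisense transcript of the same cluster, read 38.8 and 38.4 in F1 control and 56.7 and 60.8 in F1 Rif1 shRNA arrays (0.40, adjusted p = 0.0509). Of 2 probe sets for Hoxa11os 1 was tested, with 0.24 (adjusted p = 0.306) in F1. Of 2 probe sets shared by Hoxd4 and Hoxd3 1 was tested, with 0.04 (adjusted p = 0.876), and neither of the 2 for Hoxd3os1 was bright enough to be tested.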
